A study of Mus musculus with 32 samples.

Results

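Wild-type tibialis was set against wild-type quadriceps, both hind leg muscles of the mouse, by total RNA sequencing. The 4 tibialis and 4 quadriceps libraries whose labels give wild-type genotype and healthy phenotype were used, which are 8 of the 32 libraries of the series. All mice were males aged up to 3 months, and the labels give neither a strain nor a treatment. The series was built around Gne, whose product starts the making of sialic acid, and also holds knock-in mice with M743T on both alleles, labelled as healthy or sick. The same contrast was examined in 4 tibialis and 4 quadriceps libraries of healthy knock-in mice and in 3 and 3 of sick knock-in mice, which share no library with the wild-type comparison, and 4 wild-type gastrocnemius libraries served as another muscle. The labels do not say which libraries came from separate mice, so p-values measure the spread between libraries. Whole muscle was sequenced, so fewer cells of a type and less RNA per cell cannot be told apart in the results below.

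Skeletal muscle fibres are classed by the myosin heavy chain they build. Fast type IIB fibres use Myh4, fast type IIX fibres Myh1, fast oxidative type IIA fibres Myh2, and slow type I fibres Myh7. Oxidative fibres hold more mitochondria, more of the oxygen store myoglobin and more capillaries than glycolytic ones. Hox, T-box and other homeobox genes lay down position in the embryonic limb, and part of that positional expression is known to remain in adult limb tissue.

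Levels are in CPM (counts relative to TMM-adjusted library size), with means given ± SD over the 4 libraries of a muscle. Changes are log2 fold changes of tibialis over quadriceps ± SE from limma-voom. A gene was called higher or lower at an adjusted p under 0.05 (limma, Benjamini-Hochberg over all 13984 genes tested). Total counts were 12893868 to 25328450 in tibialis libraries and 11547783 to 42588233 in quadriceps libraries. In all lists of values below, libraries are given in the order of their replicate numbers. Gne itself had 10.8, 9.95, 9.85 and 11.1 CPM in tibialis, against 9.1, 9.75, 9.78 and 8.42 CPM in quadriceps. Its log2 fold change was 0.18 ± 0.11, limma adjusted p 0.353, and it was not called although the ranges did not overlap.

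All 4 wild-type tibialis libraries carried kidney transcripts. Kap, a protein of the proximal tubule, had 32.2, 43.2, 36.7 and 36.3 CPM in tibialis, against 0, 0.113, 0.0743 and 0 CPM in quadriceps. Umod, the protein of the thick ascending limb, had 75, 50, 42 and 71 counts in tibialis and 0 counts in every quadriceps library. Slc34a1, the sodium phosphate carrier of the proximal tubule, had 8.99, 12.2, 11.7 and 8.54 CPM in tibialis, against 0, 0.0567, 0.0248 and 0 CPM in quadriceps. Markers of other kidney cells were near 0, with counts summed over 4 libraries of 10 in tibialis and 8 in quadriceps for Aqp2 of the collecting duct, and of 6 in tibialis and 4 in quadriceps for Nphs1 of podocytes. The summed level of 61 kidney genes was 310 to 384 CPM in tibialis and 176 to 203 CPM in quadriceps. For the 55 members under 5 CPM in quadriceps, chosen after their values were seen, it was 129 to 179 CPM in tibialis and 7.89 to 11.1 CPM in quadriceps. In healthy knock-in tibialis those 55 members summed to 6.69 to 11.9 CPM, which overlaps the range of wild-type quadriceps. Values from healthy knock-in libraries stand beside the wild-type ones below for some genes and lists, not for all. Among the sick knock-in libraries, quadriceps replicates 2 and 3 stood apart from replicate 4 and from wild-type quadriceps for several genes (values below), so the counts of sick knock-in mice are given with and without them.

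Kidney genes were therefore kept apart. They comprise the 61 genes of a kidney list, of which 38 were tested, and genes whose log2 CPM followed the summed kidney level over the tibialis libraries of all states (Pearson r of at least 0.9 and slope of at least 0.5). Of the 63 genes set apart and tested, 51 were higher and 1, Pck1, was lower in tibialis. With the replicate number as a block, 31 of the 38 list genes tested were higher and 2 lower, against 31 and 1 without it. The rule also took Ppif, a mitochondrial cyclophilin that both muscles expressed at 77 ± 10.2 CPM in tibialis and 34.9 ± 3.97 CPM in quadriceps. It took Vcp-rs too, a copy of Vcp whose reads may not be told apart from those of Vcp. Vcp-rs had 61.1 ± 9.4 CPM in tibialis and 75.2 ± 5.08 CPM in quadriceps in wild type. Healthy knock-in mice had 0.0692 ± 0.0206 CPM in tibialis and 0.185 ± 0.127 CPM in quadriceps. Gm13305, Gm2564 and Gm12407, taken as well, had 4.29, 3.49 and 0.553 CPM in wild-type tibialis and 5.1, 2.94 and 0.569 CPM in wild-type quadriceps. In healthy knock-in tibialis they had 0.07, 0.183 and 0 CPM. These genes thus differed between wild-type and knock-in mice rather than between the wild-type muscles, and the cause was not tested. The kidney level separated the muscles without overlap. A fit with that level as a covariate called 0 of 13921 genes with limma-voom (608 at an unadjusted p under 0.05) and 0 with limma-trend, and within the wild-type libraries alone muscle and kidney signal cannot be told apart.

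**Figure D1:**
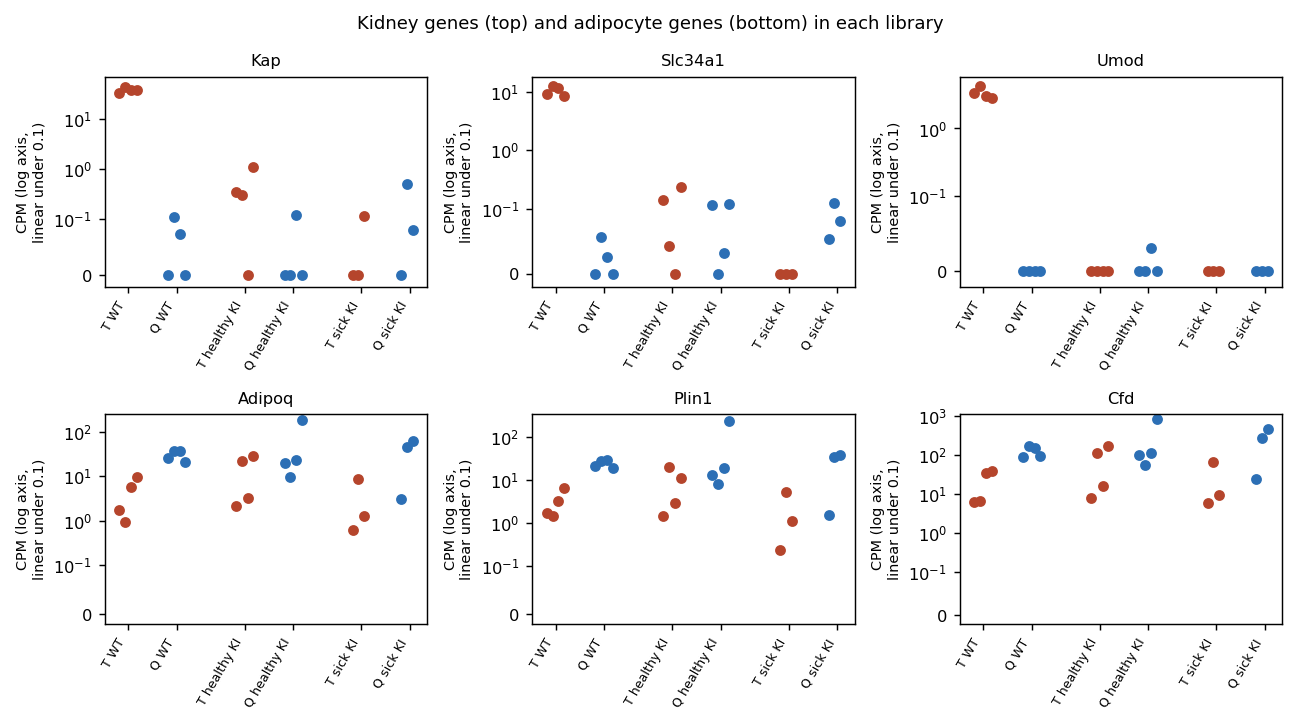
CPM of 3 kidney genes (upper row) and 3 adipocyte genes (lower row) in each library, on a log axis that is linear under 0.1 CPM, with tibialis (T) left of quadriceps (Q) in wild type (WT), healthy knock-in (KI) and sick knock-in mice. The 4 wild-type tibialis libraries hold 32.2 to 43.2 CPM of Kap, while their Adipoq, Plin1 and Cfd levels lie under those of all 4 wild-type quadriceps libraries.

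Apart from kidney genes, 647 of 13921 genes (4.65%) were higher and 465 (3.34%) were lower in tibialis, and 2373 (17%) had CPM ranges that did not overlap between the muscles. The list counts below are to be set beside these shares. Same-numbered libraries of the muscles deviated together, and with the replicate number as a block 1041 genes were higher and 849 lower. Without quadriceps replicate 1, 2 or 3 the genes higher and lower numbered 211 and 185, 194 and 175, or 173 and 141. Without tibialis replicate 1 or 2 they numbered 279 and 212 or 285 and 234, and without quadriceps replicate 4 they numbered 904 and 714.

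Tibialis had less Myh4 and more Myh1 than quadriceps. Myh4 had 18913, 41533, 20598 and 36635 CPM in tibialis, against 62342, 77138, 65203 and 57534 CPM in quadriceps, and every tibialis library lay under every quadriceps library. Its log2 fold change was -1.21 ± 0.27, limma adjusted p 0.0262, and the adjusted p became 0.0577 to 0.0863 without tibialis replicate 1 or quadriceps replicate 1, 2 or 3. Myh1 had 14104, 15115, 11717 and 14320 CPM in tibialis, against 3539.7, 2332, 2731 and 4946 CPM in quadriceps. All tibialis libraries lay above all quadriceps libraries, with a log2 fold change of 2.07 ± 0.23, limma adjusted p 0.00116, and the call held without any 1 library (highest adjusted p 0.0061, limma). Myosin heavy chain genes are close copies of each other, so reads may be shared among them.

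As shares of the reads per exon base of the adult genes Myh1, Myh2, Myh4 and Myh7, Myh4 made up 65.1 ± 8.29% in tibialis and 94.2 ± 2.93% in quadriceps (SD, n = 4 each). Myh1 made up 30.9 ± 6.5% in tibialis and 4.74 ± 1.97% in quadriceps. Both differences reached the smallest value that an exact two-sided permutation test of 4 against 4 libraries can give, p = 0.0286, which became 0.0762 after Benjamini-Hochberg adjustment over 8 shares. Myh2 made up 5.43, 1.58, 5.84 and 3.18% in tibialis, against 0.698, 0.312, 0.548 and 2.49% in quadriceps, where replicate 4 lay above tibialis replicate 2 (exact permutation p = 0.0571, adjusted 0.114). By level, Myh2 was not called (log2 fold change 1.52 ± 0.55, limma adjusted p 0.126), but it passed without quadriceps replicate 4 (limma adjusted p 0.0036) and with the replicate block (1.62, limma adjusted p 0.0231). Healthy knock-in muscles gave Myh1 shares of 16.5 ± 1.99% in tibialis and 8.16 ± 5.47% in quadriceps, and Myh4 shares of 82.3 ± 1.91% in tibialis and 90.6 ± 6.52% in quadriceps. There the ranges of both shares overlapped between the muscles. Sick knock-in muscles, quadriceps replicates 2 and 3 included, gave Myh1 shares of 13.6 ± 3.9% in tibialis and 10.9 ± 5.57% in quadriceps. Their Myh4 shares were 85.55 ± 3.99% in tibialis and 86.7 ± 7.44% in quadriceps (SD, n = 3 each).

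**Figure D2:**
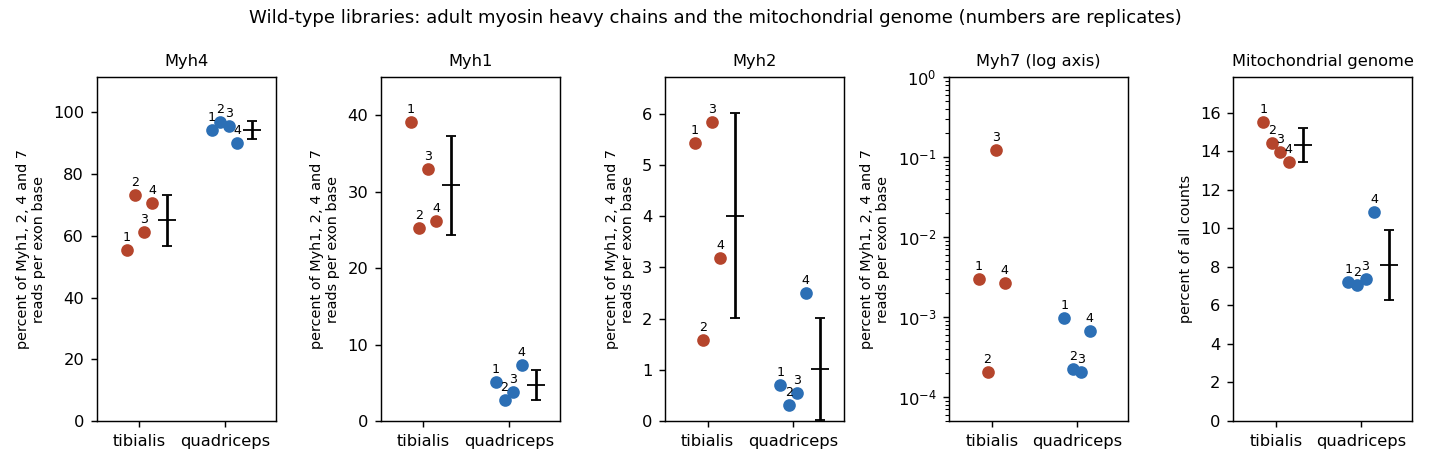
Share of each adult myosin heavy chain in reads per exon base, and share of all counts from the mitochondrial genome, in the 4 tibialis and 4 quadriceps libraries of wild-type mice (points, numbered by replicate; black bars, mean ± SD, not drawn for Myh7, which is on a log axis). Myh4 averages 65.1% in tibialis and 94.2% in quadriceps, and tibialis replicate 3 alone reaches 0.121% of Myh7.

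Slow and oxidative fibre genes had the highest median of the lists other than kidney, 2.38 over 22 measured members, beside -0.0073 over all genes apart from kidney genes. Of these members 7 were higher in tibialis, and with the replicate block 8 were higher and 1 lower. In healthy knock-in mice the list median was 0.56, with 0 members called. In sick knock-in mice, with quadriceps replicates 2 and 3 included, it was -0.76, on the other side of 0, with 0 called. Casq2, the calcium store protein of slow and heart muscle, had 55.4, 50.7, 71.1 and 47.5 CPM in tibialis, against 13.4, 8.5, 11.3 and 16.9 CPM in quadriceps. All tibialis libraries lay above all quadriceps libraries, the log2 fold change was 2.27 ± 0.20, limma adjusted p 0.000286, and the call held without each library in turn (highest adjusted p 0.00233, limma). Mb, the myoglobin gene, had 4014, 3329, 6626 and 2637 CPM in tibialis, against 548, 284, 439 and 1512 CPM in quadriceps. Quadriceps replicate 4 was the highest quadriceps library, yet under all of tibialis, and the log2 fold change was 2.75 ± 0.51, limma adjusted p 0.0152, or an adjusted p of 0.0505 without quadriceps replicate 3. The number of members higher was 2, 3 and 1 without quadriceps replicate 1, 2 or 3, 3 and 4 without tibialis replicate 2 or 3, and 9 (with 1 lower) without quadriceps replicate 4, and the median lay between 1.61 and 2.64.

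Csrp3 and Ankrd2, both known to answer to stretch and load, were among the 7. Csrp3, the muscle LIM protein of the Z-disc, had 74.4, 196, 346 and 721 CPM in tibialis, against 7.06, 1.98, 9.31 and 58.7 CPM in quadriceps. Its levels spread widely within both muscles, but the lowest tibialis library lay above the highest quadriceps library. The log2 fold change was 5.01 ± 0.96, limma adjusted p 0.02, and the adjusted p was 0.0534 to 0.0716 without tibialis replicate 2 or quadriceps replicate 1, 2 or 3. Ankrd2, an ankyrin repeat protein of the sarcomere, had 85.8, 125, 391 and 368 CPM in tibialis, against 12.2, 8.05, 31.2 and 79.2 CPM in quadriceps. The ranges were close but did not overlap (3.26 ± 0.76, limma adjusted p 0.0367), and the adjusted p was 0.0647 to 0.115 without tibialis replicate 2, 3 or 4 or quadriceps replicate 1, 2 or 3.

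Hspb7, Fhl1 and Hspb6 ranked the 4 tibialis libraries in the same order as Csrp3 did. Hspb7, a heat shock protein of heart and skeletal muscle, had 579, 717, 1048 and 2309 CPM in tibialis, against 116, 103, 179 and 351 CPM in quadriceps. Tibialis replicate 4 was the highest library and no ranges overlapped (2.57 ± 0.50, limma adjusted p 0.0188), with an adjusted p of 0.0505 to 0.0541 without tibialis replicate 3 or quadriceps replicate 1 or 3. Fhl1, a LIM protein of muscle that was not on the list, had 2545, 3164, 3678 and 6193 CPM in tibialis, against 417, 287, 548 and 838 CPM in quadriceps. It was called with 2.91 ± 0.35, limma adjusted p 0.00193 and without each library. Hspb6, with Hspb7 the called pair among 20 heat shock genes, averaged 1487 ± 489 CPM in tibialis and 542 ± 122 CPM in quadriceps (1.44 ± 0.24, limma adjusted p 0.00824). Blocking by replicate number gave 3 of the 20 higher and 1 lower. The added ones, named after their values were seen, were Cryab (1.17, limma adjusted p 0.013) and Hsph1 (-1.004, 0.00249).

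Myl3, the slow and ventricular myosin light chain, had the highest fold change of the named genes other than kidney genes. It had 34.9, 16.2, 141 and 9.53 CPM in tibialis, against 0.214, 0.0567, 0.0743 and 1.75 CPM in quadriceps. Every tibialis library was above every quadriceps library, but each muscle spread over more than a factor of 10 (log2 fold change 7.47 ± 1.87, limma adjusted p 0.0458). The adjusted p was 0.0681 to 0.151 without tibialis replicate 1 or 2 or quadriceps replicate 1, 2, 3 or 4. Myh7 and the slow troponins were not called. Myh7 had 1.45, 0.167, 58.6 and 1.99 CPM in tibialis, against 0.91, 0.255, 0.198 and 0.614 CPM in quadriceps, with tibialis replicate 3 far above all others and the remaining libraries overlapping (2.74 ± 1.72, limma adjusted p 0.353). The slow troponins Tnni1, Tnnt1 and Tnnc1, named after their values were seen, had limma adjusted p-values of 0.335, 0.253 and 0.351, and each was highest in tibialis replicate 3.

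The promoters of 6 of these higher genes, Myl3, Casq2, Ankrd2, Mb, Csrp3 and Hspb7, were searched for motifs, and those of the 4 with a match are shown. They are RefSeq's on GRCm38.p6, from 250 bases before to 50 bases after the transcript start, read 5′ to 3′ on the strand of the gene. Capitals mark matches, on either strand, to the letters of motifs known from muscle and basal promoters. Those searched were CAGCTG (an E-box), TAAAAATA (bound by MEF2), CATTCCT (the MCAT element), TCAGGTT (MEF3), AAGGTCA (bound by oestrogen-related receptors) and TATAAA, and no 2 matches overlapped. Among 32851 promoters of 300 bases, these letters occurred in 16.3%, 2.72%, 5.36%, 4.07%, 4.72% and 13.6%. The Myl3 window (chr9:110763428-110763727, plus strand) holds CATTCCT, at -149 from the start site. That of Casq2 (chr3:102086165-102086464, plus strand) holds the MEF2 letters on the minus strand at -68, and that of Ankrd2 (chr19:42035777-42036076, plus strand) holds TATAAA at -29. For Mb, the second of 3 windows is shown (chr15:77022738-77023037, minus strand), with CAGCTG at -133. The windows of Csrp3 and Hspb7 held none of these letters, which says nothing on what binds there.
Myl3: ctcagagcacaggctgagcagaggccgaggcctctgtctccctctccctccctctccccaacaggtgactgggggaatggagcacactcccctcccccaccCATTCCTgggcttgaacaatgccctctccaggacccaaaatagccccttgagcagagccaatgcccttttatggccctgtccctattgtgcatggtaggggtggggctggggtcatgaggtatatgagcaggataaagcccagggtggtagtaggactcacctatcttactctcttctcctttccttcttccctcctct
Casq2: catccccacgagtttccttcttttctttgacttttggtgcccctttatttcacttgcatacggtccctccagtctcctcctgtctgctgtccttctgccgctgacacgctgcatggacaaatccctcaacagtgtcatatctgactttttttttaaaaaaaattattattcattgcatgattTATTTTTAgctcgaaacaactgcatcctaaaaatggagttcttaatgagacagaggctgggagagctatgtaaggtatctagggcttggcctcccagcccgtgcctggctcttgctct
Ankrd2: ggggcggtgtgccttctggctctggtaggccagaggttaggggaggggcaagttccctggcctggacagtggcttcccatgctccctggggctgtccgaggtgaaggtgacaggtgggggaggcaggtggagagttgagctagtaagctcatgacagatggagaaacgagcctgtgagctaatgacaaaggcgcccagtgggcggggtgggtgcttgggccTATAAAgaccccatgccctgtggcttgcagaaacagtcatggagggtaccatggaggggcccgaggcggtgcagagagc
Mb: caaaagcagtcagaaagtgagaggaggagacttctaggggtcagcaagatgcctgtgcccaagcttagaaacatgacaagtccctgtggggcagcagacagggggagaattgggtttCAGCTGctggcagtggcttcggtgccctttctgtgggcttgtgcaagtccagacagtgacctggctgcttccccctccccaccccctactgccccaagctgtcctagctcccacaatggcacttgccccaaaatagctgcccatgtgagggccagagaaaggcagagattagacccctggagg

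Of 20 fast fibre genes measured, 6 were lower and 2 higher in tibialis, with a median of -0.37. The 2 higher were Myh1 and Actn2, an alpha-actinin of Z-discs in all fibre types, which had 2136, 2010.1, 2537 and 2399.8 CPM in tibialis, against 627, 520.2, 787 and 1111 CPM in quadriceps. Its ranges did not overlap (1.62 ± 0.22, limma adjusted p 0.00322), and the call held without each library. Lower were Myh4 and Tnnc2, the fast troponin C, with 63.2, 82.4, 110.4 and 71.2 CPM in tibialis, against 124, 159.7, 175 and 141 CPM in quadriceps. Tnnc2 did not overlap either (-0.87 ± 0.18, limma adjusted p 0.0208), and its adjusted p was 0.0518 to 0.0786 without tibialis replicate 1 or 2 or quadriceps replicate 2 or 3. The other 4 lower ones, named after their values were seen, were Actn3, Atp2a1, Mybpc2 and Myoz3, all of fast fibres, with log2 fold changes of -0.90, -0.66, -0.98 and -0.94. Without quadriceps replicate 1 or tibialis replicate 1 the number lower was 1, and without quadriceps replicate 2 or 3 limma-voom called 0 lower, where limma-trend on all 8 libraries called 6 and 8 had an unadjusted p under 0.05. With any 1 library left out the median was -0.48 to -0.26, and in healthy knock-in mice it was -0.048. The replicate block gave 8 lower and 2 higher.

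Some calcium release genes were lower as well. Of 26 measured, 7 were lower and none higher, with a median of -0.31. With the replicate block 11 were lower. Jph1, a junctophilin that ties the sarcoplasmic reticulum to the T-tubule, had 287, 371, 307 and 319.5 CPM in tibialis, against 532, 545, 539.9 and 427 CPM in quadriceps. Quadriceps replicate 4 lay apart from the other quadriceps libraries on the side of tibialis, and there was no overlap (-0.64 ± 0.13, limma adjusted p 0.02). Trdn, the triadin of the release complex, averaged 1074 ± 96.3 CPM in tibialis and 1689 ± 219 CPM in quadriceps (-0.62 ± 0.14, limma adjusted p 0.0267). Jph2, a second junctophilin, averaged 727 ± 91.7 CPM in tibialis and 1139.5 ± 139.6 CPM in quadriceps (-0.62 ± 0.14, limma adjusted p 0.0278). The limma adjusted p of Jph1 was 0.0531 to 0.0826 without tibialis replicate 1 or quadriceps replicate 1, 2 or 3. For Trdn it was 0.0533 to 0.0999 without tibialis replicate 1 or 2 or quadriceps replicate 1, 2 or 3, and for Jph2 0.0629 to 0.106 without tibialis replicate 1 or 2 or quadriceps replicate 1, 2 or 3. Without quadriceps replicate 1, 2 or 3 or tibialis replicate 1 limma-voom called 0 of the 26, against 4 without tibialis replicate 2. With all 8 libraries 12 were lower at an unadjusted p under 0.05 and 5 by limma-trend. The median of the 26 was -0.10 in healthy knock-in mice.

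Sarcomere and Z-disc genes moved in both directions, with 5 of 32 higher and 3 lower. Besides Actn2, Csrp3 and Ankrd2, the higher ones were Mybpc1 and Lmod3. Mybpc1, a myosin binding protein of slow fibres that fast fibres also build, had 2829, 3153, 3506 and 2975 CPM in tibialis, against 1183, 749.7, 1473 and 1676 CPM in quadriceps. The ranges did not overlap (1.35 ± 0.23, limma adjusted p 0.00913), and healthy knock-in mice averaged 3204 ± 401 CPM in tibialis and 1422 ± 744 CPM in quadriceps. In a fit that shared the spread over all 12 wild-type libraries Mybpc1 was lost (limma adjusted p 0.057). Lmod3, a leiomodin of thin filaments, averaged 189 ± 35.4 CPM in tibialis and 106 ± 12.6 CPM in quadriceps (0.83 ± 0.15, limma adjusted p 0.0106). Without quadriceps replicate 1, 2 or 3 the list had 3 higher with 0, 1 and 0 lower, without tibialis replicate 1 it had 5 and 1, without tibialis replicate 2 it had 3 and 2, and without quadriceps replicate 4 it had 8 and 4. The block gave 7 higher and 4 lower. By limma-trend on all libraries it had 5 higher and 3 lower, and at an unadjusted p under 0.05 12 and 6.

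Myosins of developing fibres were measured too, and of 12 embryonic fibre genes 2 were higher, with a list median of 0.63. The list median lay on the other side of 0 in healthy knock-in mice (-0.61) and in sick knock-in mice (-0.86, quadriceps replicates 2 and 3 included). Myh8, the perinatal heavy chain, had 67, 64.6, 94.5 and 70.7 CPM in tibialis, against 22, 19.3, 18.5 and 23 CPM in quadriceps. There was no overlap (1.86 ± 0.14, limma adjusted p 0.000122), and the call held without each library. Healthy knock-in mice had 39.5 ± 9.3 CPM in tibialis and 48.1 ± 42.2 CPM in quadriceps. Myh3, the embryonic heavy chain, averaged 12.7 ± 1.13 CPM in tibialis and 8.47 ± 2.2 CPM in quadriceps (0.70 ± 0.18, limma adjusted p 0.045), with an adjusted p of 0.0526 to 0.155 without tibialis replicate 1, 2, 3 or 4 or quadriceps replicate 1, 2 or 3. In healthy knock-in mice Myh3 had 10.2, 11.9, 11.3 and 12.1 CPM in tibialis, against 54.05, 7.96, 19.95 and 10.7 CPM in quadriceps, and the muscles overlapped. With the replicate block 3 of the 12 wild-type list members were higher and 1 lower.

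Most genes of oxidative phosphorylation were higher in tibialis. Of 40 nuclear genes measured, 29 were higher and none lower, 35 had ranges that did not overlap, and the median was 0.81. Over all genes apart from kidney genes 4.65% were higher and 17% did not overlap. Sdhd, a subunit of complex II, had 411, 397, 611 and 335 CPM in tibialis, against 208, 198, 214 and 259 CPM in quadriceps. The ranges did not overlap (0.98 ± 0.18, limma adjusted p 0.0121), and the call held without each library (highest adjusted p 0.0473, limma). Cyc1, the cytochrome of complex III, had 755, 741, 917 and 538 CPM in tibialis, against 409.8, 347, 379 and 479 CPM in quadriceps (0.86 ± 0.17, limma adjusted p 0.0186). Cox7a1, the muscle form of a complex IV subunit, had 402, 449, 781 and 272 CPM in tibialis, against 188, 162, 161 and 216 CPM in quadriceps (1.31 ± 0.27, limma adjusted p 0.0195). Both calls were lost with 1 library left out, where the limma adjusted p of Cyc1 was 0.0509 to 0.0654 without tibialis replicate 1 or 2 or quadriceps replicate 1, 2 or 3 and that of Cox7a1 was 0.0522 to 0.0647 without tibialis replicate 2 or quadriceps replicate 1, 2 or 3. In all 3, tibialis replicate 3 was the highest library, tibialis replicate 4 the lowest of its muscle and quadriceps replicate 4 the highest of its own.

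Without quadriceps replicate 1, 2 or 3 or tibialis replicate 2 only 1 of the 40 passed, and without tibialis replicate 1 it was 3. Without tibialis replicate 3, quadriceps replicate 4 or tibialis replicate 4 it was 27, 32 and 37. The median lay between 0.62 and 0.94 throughout, and with all 8 libraries 39 of the 40 were higher at an unadjusted p under 0.05. The block gave 33 higher. Their median was 0.33 in healthy knock-in mice.

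Transcripts of the mitochondrial genome made up 15.5, 14.4, 13.9 and 13.4% of counts in tibialis, against 7.21, 7.04, 7.38 and 10.8% in quadriceps. Quadriceps replicate 4 stood above the other quadriceps libraries, with no overlap between the muscles (exact two-sided permutation p = 0.0286, the smallest possible, and 0.0762 adjusted over 8 shares). Of 12 genes measured, 9 were higher with a median of 0.90, and without quadriceps replicate 1, 2 or 3 the number was 4, 5 and 4. mt-Cytb, cytochrome b of complex III, had 32626, 34548, 38108 and 30293 CPM in tibialis, against 15354, 14761, 16138 and 21783 CPM in quadriceps. It was called (1.01 ± 0.17, limma adjusted p 0.00817) and remained so without each library. The share in healthy knock-in mice was 12.6 ± 1.52% in tibialis and 9.54 ± 2.34% in quadriceps, and in sick knock-in mice 10.9 ± 2.31% in tibialis and 6.01 ± 1.06% in quadriceps (SD, n = 3 each).

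Of 20 genes of the citrate cycle and ketone body use, 11 were higher, or 10 with the replicate block, with a median of 0.64. Got2, the mitochondrial aspartate aminotransferase, had 588, 570.1, 720.1 and 410.4 CPM in tibialis, against 259, 214, 251 and 329 CPM in quadriceps (1.12 ± 0.19, limma adjusted p 0.00862). Dlat and Pdhb, subunits of pyruvate dehydrogenase, were higher too. Dlat averaged 404 ± 55.9 CPM in tibialis and 237 ± 11.9 CPM in quadriceps (0.78 ± 0.13, limma adjusted p 0.00776), and Pdhb averaged 346 ± 88 CPM in tibialis and 191 ± 28.6 CPM in quadriceps (0.85 ± 0.18, limma adjusted p 0.0221). Got2 and Dlat were called without any 1 library, and the limma adjusted p of Pdhb was 0.0528 to 0.0716 without tibialis replicate 1 or quadriceps replicate 1, 2 or 3. The list count was 2 without quadriceps replicate 1, 2 or 3 or tibialis replicate 1, and 3 without tibialis replicate 2, while the median lay between 0.59 and 0.76.

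Fatty acid uptake and oxidation gave 6 higher genes of 33, or 7 with the replicate block, and a median of 0.67. Acadl, the long-chain acyl-CoA dehydrogenase, had 385, 423, 633 and 229 CPM in tibialis, against 139, 137, 159 and 248 CPM in quadriceps. Quadriceps replicate 4 lay above tibialis replicate 4 (1.26 ± 0.30, limma adjusted p 0.0322). Eci1, an enoyl-CoA isomerase, overlapped in the same libraries (1.224 ± 0.30, limma adjusted p 0.0369), and Acsl1, which activates fatty acids, averaged 411 ± 71.9 CPM in tibialis and 259 ± 37.3 CPM in quadriceps (0.67 ± 0.16, limma adjusted p 0.0342). The limma adjusted p of Acadl was 0.0624 to 0.0962 without tibialis replicate 1, 2 or 3 or quadriceps replicate 1, 2 or 3, that of Eci1 0.058 to 0.109 without tibialis replicate 1, 2 or 3 or quadriceps replicate 1, 2 or 3, and that of Acsl1 0.077 to 0.107 without tibialis replicate 1 or 2 or quadriceps replicate 1, 2 or 3. Without quadriceps replicate 1, 2 or 3 or tibialis replicate 1 or 2 limma-voom called 0, without tibialis replicate 3 it called 1, and without quadriceps replicate 4 or tibialis replicate 4 it called 15 and 17. With all 8 libraries 24 were higher at an unadjusted p under 0.05 and 5 by limma-trend. This list had a median of 0.034 in healthy knock-in mice.

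Glycolysis and glycogen genes had few calls, with 2 of 26 higher and a median of 0.26. Both build glycogen. Gbe1, the branching enzyme, had 129, 89.8, 156 and 127 CPM in tibialis, against 39.2, 34.3, 48.5 and 63.7 CPM in quadriceps (1.46 ± 0.22, limma adjusted p 0.00458). Gys1, the synthase of muscle, had 758, 706, 837 and 635 CPM in tibialis, against 428, 395, 440.4 and 488 CPM in quadriceps (0.75 ± 0.13, limma adjusted p 0.00857). Neither gene overlapped between the muscles, and both calls held without each library. With the replicate block 4 of the list were higher and 4 lower, and without quadriceps replicate 4 these were 4 and 1. Hk2, the hexokinase of muscle, had a log2 fold change of 0.58 ± 0.16, limma adjusted p 0.052, and was called without quadriceps replicate 4 (limma adjusted p 0.0117) and with the replicate block (0.0253).

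**Figure D3:**
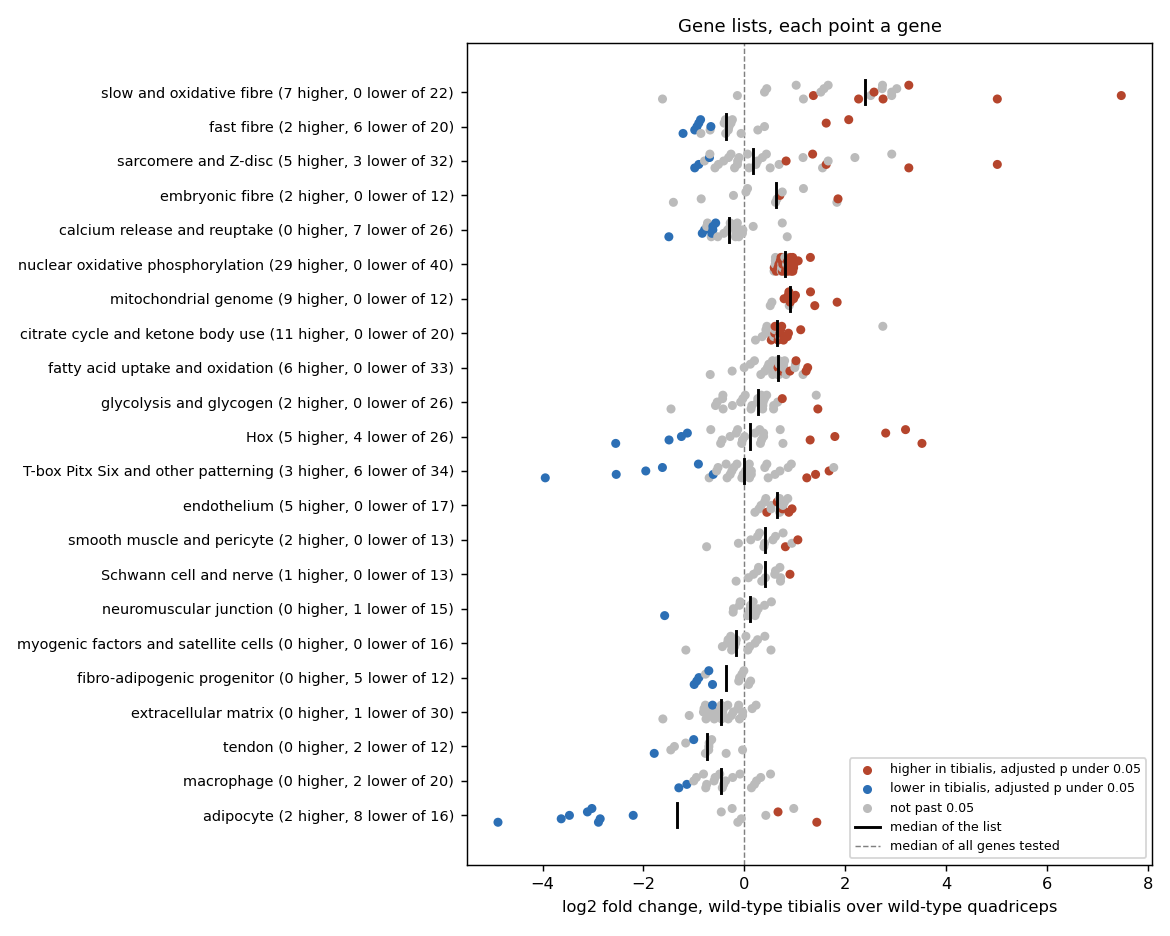
Log2 fold change of tibialis over quadriceps for each measured member of 22 gene lists (points, coloured by call at an adjusted p of 0.05; black bar, median of the list; dashed line, median of all genes tested apart from kidney genes). The nuclear oxidative phosphorylation genes lie to the right with a median of 0.81, and adipocyte genes spread to the left with a median of -1.33.

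Hox genes differed in both directions. Of 26 measured, 5 were higher and 4 lower. The higher ones were Hoxa13, Hoxa11 and Hoxc11, paralogues used towards the far end of the limb, and the noncoding Hoxa11os and Hotair. Hoxa13 (chr6:52257694-52260880, minus strand on GRCm38, as are the gene positions below) had 1.81, 2.17, 2.83 and 2.79 CPM in tibialis, against 0.214, 0.368, 0.149 and 0.351 CPM in quadriceps (3.20 ± 0.35, limma adjusted p 0.00096). Hoxa11 had 1.81, 1.84, 1.88 and 2.23 CPM in tibialis, against 0.375, 0.624, 0.0743 and 0.438 CPM in quadriceps (2.80 ± 0.52, limma adjusted p 0.013). Hoxc11 had 4.63, 5.35, 6.59 and 6.58 CPM in tibialis, against 2.67, 2.55, 2.28 and 1.67 CPM in quadriceps (1.30 ± 0.19, limma adjusted p 0.00458). No tibialis library overlapped a quadriceps library for any of these 3. Hoxa11os lies antisense to Hoxa11 and Hotair to Hoxc11, and the strand setting of the counting is not given, so reads of each pair may not be told apart (3.52 ± 0.60, limma adjusted p 0.00863 for Hoxa11os and 1.79 ± 0.36, limma adjusted p 0.0186 for Hotair).

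The lower Hox genes were Hoxc8, Hoxc6, Hoxd9 and Hoxd8. Hoxc8 had 0.573, 0.753, 0.869 and 0.678 CPM in tibialis, against 5.24, 4.56, 5.03 and 1.93 CPM in quadriceps (-2.55 ± 0.38, limma adjusted p 0.00513). All 4 tibialis libraries were under all 4 quadriceps libraries. Hoxd9 had 1.1, 1.25, 1.88 and 1.44 CPM in tibialis, against 4.07, 5.16, 3.12 and 3.77 CPM in quadriceps (-1.49 ± 0.25, limma adjusted p 0.00904). Hoxc6 averaged 3.53 ± 0.787 CPM in tibialis and 8.07 ± 1.62 CPM in quadriceps (-1.13 ± 0.20, limma adjusted p 0.0115), and Hoxd8 averaged 5.72 ± 1.42 CPM in tibialis and 13.3 ± 3.56 CPM in quadriceps (-1.25 ± 0.24, limma adjusted p 0.0164). Hoxd8 was lost without tibialis replicate 1 (adjusted p 0.0546) and Hotair without tibialis replicate 1 or quadriceps replicate 2 or 3 (0.0505 to 0.0752), while the other 7 Hox calls held without each library. In a fit of the 12 wild-type libraries Hoxd9 and Hoxd8 were lost (limma adjusted p 0.234 and 0.258), and in a fit of 22 tibialis and quadriceps libraries Hotair was lost (0.0548). Blocking by replicate gave 6 higher and 5 lower, as Hoxa5 (0.71, limma adjusted p 0.0323) and Hoxc9 (-0.48, 0.0429) were added. Hoxc10, between these groups in its cluster, had overlapping levels of 82.4 ± 8.62 CPM in tibialis and 92.6 ± 7.08 CPM in quadriceps (-0.16 ± 0.11, limma adjusted p 0.397).

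In healthy knock-in mice Hoxa13 had 3.82 ± 1.31 CPM in tibialis and 0.313 ± 0.0651 CPM in quadriceps (log2 fold change 3.30 ± 0.38, limma adjusted p 0.0287). Hoxc8 had 1.1 ± 0.328 CPM in tibialis and 4.73 ± 1.27 CPM in quadriceps there, with a log2 fold change of -2.14. Hoxa11 and Hoxc6 had 4.75 and -1.47, on the same side as in wild type. Hoxd9 averaged 2.11 ± 0.984 CPM in tibialis and 2.55 ± 1.58 CPM in quadriceps there, and Hoxd8 6.2 ± 1.97 CPM in tibialis and 8.66 ± 5.05 CPM in quadriceps. Their fitted log2 fold changes were 0.41 for Hoxd9 and 0.067 for Hoxd8, against the sign of these means. Quadriceps replicate 3 had 0.588 CPM of Hoxd9 and 2.88 CPM of Hoxd8, under all tibialis libraries.

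**Figure D4:**
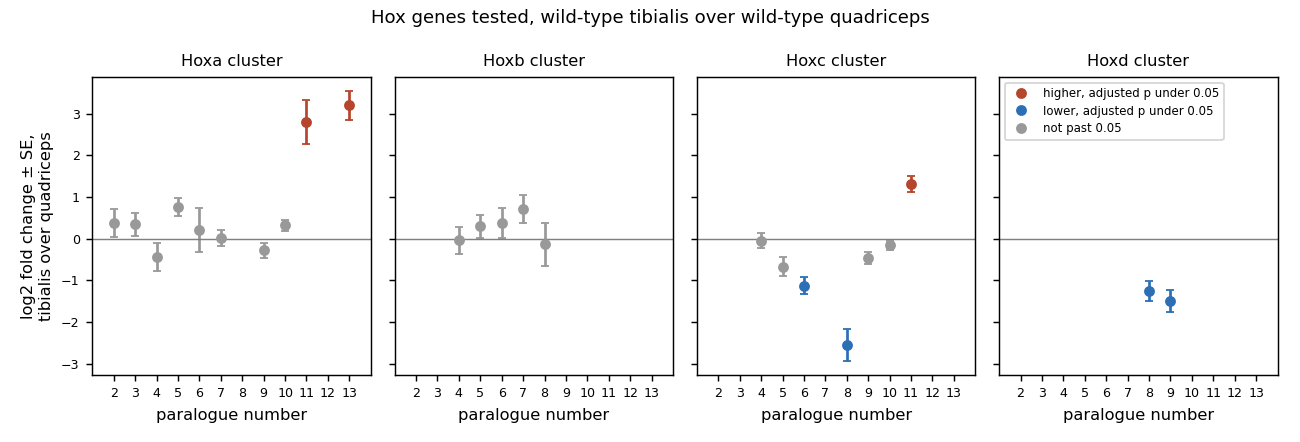
Log2 fold change of tibialis over quadriceps in wild-type mice (points; bars, SE) for each Hox protein gene tested, by cluster and paralogue number, with calls at an adjusted p of 0.05 coloured. Hoxa11, Hoxa13 and Hoxc11 hold the higher calls, and Hoxc6, Hoxc8, Hoxd8 and Hoxd9 the lower ones.

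Of 34 T-box, Pitx and other limb patterning genes measured, 3 were higher and 6 lower. Six2, a homeobox gene (chr17:85684277-85688274, minus strand), had 6.3, 5.86, 6.88 and 5.47 CPM in tibialis, against 41.7, 29.1, 43.1 and 31 CPM in quadriceps (-2.54 ± 0.18, limma adjusted p 8.25e-05). Tbx1, a T-box gene (chr16:18580979-18590671, minus strand), had 72.6, 67.3, 89.5 and 67.4 CPM in tibialis, against 27.8, 24.7, 29.5 and 30.6 CPM in quadriceps (1.41 ± 0.12, limma adjusted p 0.000283). Irx3 of the Iroquois family had 6.13, 5.6, 7.32 and 6.02 CPM in tibialis, against 2.19, 1.62, 2.05 and 2.19 CPM in quadriceps (1.68 ± 0.17, limma adjusted p 0.000552). The ranges of these 3 did not overlap, and each was called without any 1 library. In wild-type gastrocnemius Six2 had 24.2, 38.1, 8.38 and 48.2 CPM, of which 8.38 CPM in replicate 3 lay near tibialis, and Tbx1 had 4.6, 2.01, 11.5 and 1.75 CPM, under both other muscles.

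The other called members, named after their values were seen, were Pitx3 (1.24), higher in tibialis, and Tbx5 (-3.95), Emx2 (-1.95), En1 (-1.62), Eya4 (-0.91) and Eya1 (-0.62), lower in tibialis. Tbx5, known for its role in the forelimb, had at most 0.167 CPM in tibialis and 0.614 to 2.21 CPM in quadriceps. With the replicate block 6 of the 34 were higher and 6 lower. The counts were 2 and 3 without quadriceps replicate 1 or 2, 3 and 3 without quadriceps replicate 3, 3 and 2 without tibialis replicate 1, and 2 and 6 without tibialis replicate 2. Pitx1 and Tbx4, genes of hindlimb identity, were not called (0.87 ± 0.55, limma adjusted p 0.354 for Pitx1 and 0.45 ± 0.24, limma adjusted p 0.27 for Tbx4), nor was Tbx15 (-0.25 ± 0.11, limma adjusted p 0.194).

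Sim1 had the second highest fold change of the named genes other than kidney genes. It encodes a bHLH-PAS transcription factor (chr10:50894754-50989152, plus strand) and had 12.3, 11.1, 6.52 and 10.3 CPM in tibialis, against 0.214, 0.227, 0.099 and 0.526 CPM in quadriceps (5.55 ± 0.48, limma adjusted p 0.000254). Every tibialis library was far above every quadriceps library. Sim1 averaged 9.76 ± 5.53 CPM in tibialis and 0.508 ± 0.334 CPM in quadriceps of healthy knock-in mice, and 13.6 ± 4.9 CPM in tibialis and 1.5 ± 1.29 CPM in quadriceps of sick knock-in mice, and its mean in wild-type gastrocnemius was 0.261 CPM. Npr3, the clearance receptor of natriuretic peptides, had 38.3, 35.7, 23.1 and 45.9 CPM in tibialis, against 6.74, 4.54, 5.22 and 6.75 CPM in quadriceps (2.67 ± 0.24, limma adjusted p 0.000286). Healthy knock-in mice had 40.4 ± 24.8 CPM in tibialis and 12.7 ± 13.2 CPM in quadriceps.

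Mpped2, a metallophosphodiesterase, averaged 6.99 ± 2.24 CPM in tibialis and 0.905 ± 0.983 CPM in quadriceps (3.77 ± 0.48, limma adjusted p 0.00234). Rgs9bp, which anchors a G protein regulator, averaged 3.54 ± 1.58 CPM in tibialis and 0.543 ± 0.472 CPM in quadriceps (3.09 ± 0.53, limma adjusted p 0.00904).

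**Figure D5:**
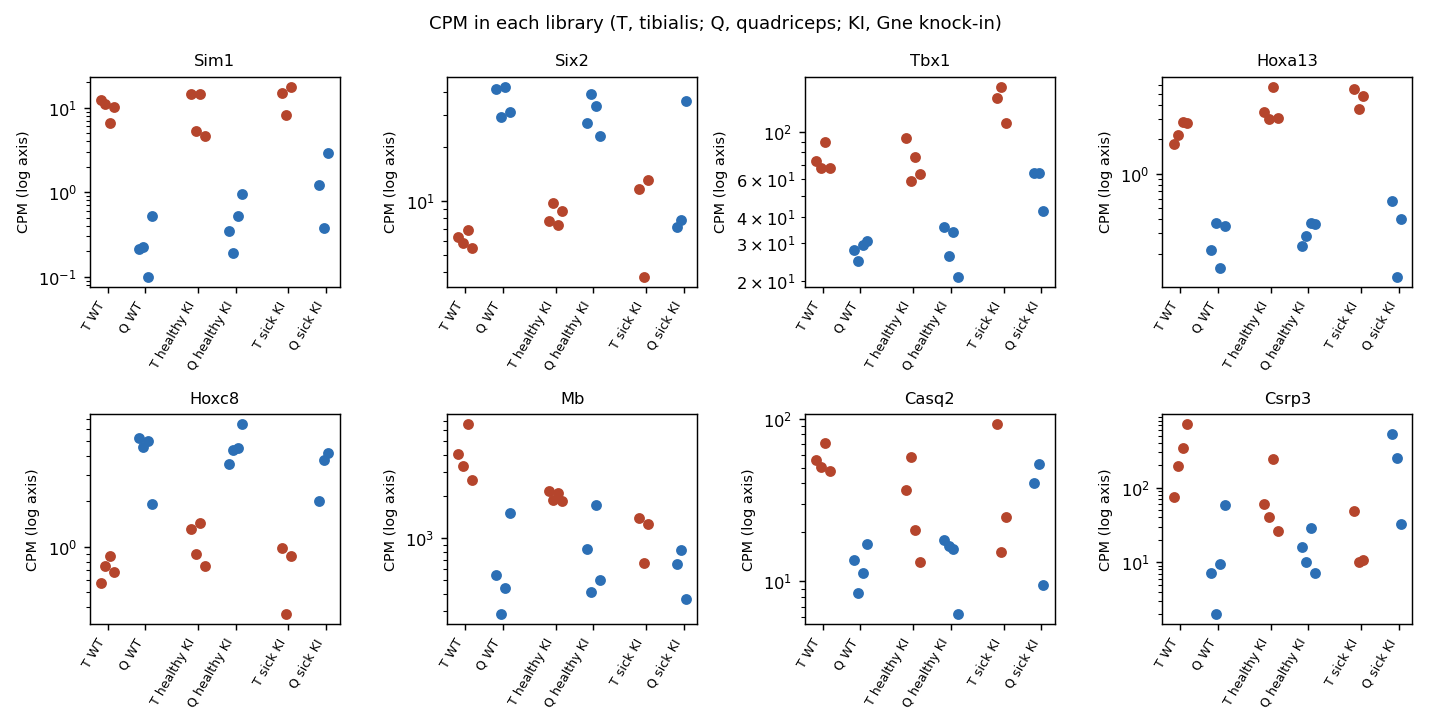
CPM (log axis) of 8 genes in each tibialis (T) and quadriceps (Q) library of wild-type (WT), healthy knock-in and sick knock-in (KI) mice. Sim1 and Hoxa13 are higher and Hoxc8 lower in tibialis without overlap in each state, with 6.52 to 12.3 CPM of Sim1 in wild-type tibialis and 0.099 to 0.526 CPM in wild-type quadriceps, while Csrp3 and Casq2 overlap between the muscles of the knock-in mice.

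Adipocyte genes had the lowest median of the lists, -1.33, with 8 of 16 lower in tibialis and 2 higher. Adipoq, the hormone adiponectin, had 1.72, 0.92, 5.58 and 9.53 CPM in tibialis, against 26.1, 36.4, 36.4 and 20.5 CPM in quadriceps (-3.11 ± 0.55, limma adjusted p 0.0126, and 0.0501 without tibialis replicate 1). Plin1, the coat protein of fat droplets, had 1.72, 1.51, 3.33 and 6.58 CPM in tibialis, against 21.2, 27.7, 29.5 and 18.8 CPM in quadriceps (-3.02 ± 0.38, limma adjusted p 0.00206). Cfd, or adipsin, had 6.08, 6.44, 34.8 and 38.1 CPM in tibialis, against 87.8, 165, 145 and 91.7 CPM in quadriceps (-2.89 ± 0.63, limma adjusted p 0.0294). Tibialis replicates 3 and 4 were the higher tibialis libraries for these 3, and all 4 lay under quadriceps. Lep, the hormone leptin, averaged 0.6 ± 0.811 CPM in tibialis and 4.27 ± 1.46 CPM in quadriceps (-3.63 ± 0.82, limma adjusted p 0.0284). Adrb3, the adrenergic receptor of fat, had reads in tibialis replicate 4 alone (0.199 CPM), against 0.803 to 1.96 CPM in quadriceps. Calls of Cfd were lost without tibialis replicate 1 or 2 or quadriceps replicate 1, 2 or 3 (adjusted p 0.0599 to 0.0936) and those of Lep without tibialis replicate 1, 2 or 3 or quadriceps replicate 1, 2 or 3 (0.0595 to 0.0805). In a fit that shared the spread over 22 tibialis and quadriceps libraries of all states, the calls of Adipoq (0.139), Plin1 (0.149), Cfd (0.146), Lep (0.155) and Adrb3 (0.0522, limma adjusted p) were lost.

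Among the genes with the lowest fold changes of the comparison, several were not on the list. Lgals12, a galectin of fat cells, averaged 0.456 ± 0.425 CPM in tibialis and 5.02 ± 0.384 CPM in quadriceps (-3.70 ± 0.44, limma adjusted p 0.00147). Acvr1c, an activin-type receptor of fat cells, averaged 0.464 ± 0.145 CPM in tibialis and 4.73 ± 2.21 CPM in quadriceps (-3.28 ± 0.48, limma adjusted p 0.00434). Retn, the fat hormone resistin and a list member, averaged 0.912 ± 1.09 CPM in tibialis and 6.22 ± 2.71 CPM in quadriceps (-3.47 ± 0.63, limma adjusted p 0.0121). Apoc1, Pon1, Nnat and Themis3 had log2 fold changes of -3.35, -3.55, -3.28 and -3.85. The call of Apoc1 was lost without tibialis replicate 1 (limma adjusted p 0.0507). The fit of 22 libraries lost Lgals12 (0.0801), Acvr1c (0.071), Retn (0.138) and Apoc1 (0.094), and that of 12 wild-type libraries lost Themis3 (limma adjusted p 0.185).

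The 2 higher members of the list are also made by muscle. Car3, a carbonic anhydrase, had 3562, 3238, 2561 and 4142 CPM in tibialis, against 984, 1422, 1141 and 1441 CPM in quadriceps (1.44 ± 0.19, limma adjusted p 0.00249), with no overlap, and the second was Acsl1, given above, which was lost without tibialis replicate 1 or 2 or quadriceps replicate 1, 2 or 3 (adjusted p 0.077 to 0.107). The number of adipocyte genes lower was 5 without tibialis replicate 1. In healthy knock-in mice the list median was -1.23, with Plin1 at 1.51, 20.1, 3.02 and 11.2 CPM in tibialis, against 13.2, 8.25, 19.2 and 235 CPM in quadriceps. Replicate 4 stood far above the other quadriceps libraries there, and the muscles overlapped.

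The muscle genes Mss51 and Mstn were lower too. Mss51, a mitochondrial protein of skeletal muscle, had 16.9, 20.2, 14.8 and 67.3 CPM in tibialis, against 111, 299.96, 208 and 223 CPM in quadriceps (-2.98 ± 0.50, limma adjusted p 0.0107). Mstn, or myostatin, which restrains muscle growth, had 19.3, 35.7, 28.8 and 38.7 CPM in tibialis, against 85.6, 124, 107 and 97.4 CPM in quadriceps (-1.78 ± 0.22, limma adjusted p 0.00173). Neither overlapped, and both were called without each library, but Mss51 was lost in the fit of 22 libraries (limma adjusted p 0.0569). Mstn and Fbxo40, a ubiquitin ligase subunit of muscle at 337 ± 22.3 CPM in tibialis and 463 ± 28.6 CPM in quadriceps (-0.45 ± 0.11, limma adjusted p 0.0332), were the 2 of 25 atrophy genes called, and Fbxo40 was lost without tibialis replicate 1 or 2 or quadriceps replicate 1, 2 or 3 (adjusted p 0.0731 to 0.129). With the replicate block 3 were lower. Over all genes apart from kidney genes 3.34% were lower without the block.

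Musk, the receptor kinase of the neuromuscular junction, was the called member of 15 junction genes, whose median was 0.11. It had 5.2, 6.69, 2.1 and 8.7 CPM in tibialis, against 13.5, 16.8, 14.8 and 20.2 CPM in quadriceps. There was no overlap (-1.58 ± 0.33, limma adjusted p 0.022), and the adjusted p was 0.0588 to 0.0673 without tibialis replicate 1 or quadriceps replicate 2 or 3. Dok7, an adaptor of Musk named after its values were seen, was higher with the replicate block (0.54, limma adjusted p 0.0214). Without the block 3.34% of all genes apart from kidney genes were lower.

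Part of the stromal genes were lower. Of 12 genes of fibro-adipogenic progenitors, the connective tissue cells of muscle, 5 were lower. Gsn, which severs actin, had 695, 693, 625 and 840.3 CPM in tibialis, against 1284, 1465, 1444 and 1316 CPM in quadriceps (-0.94 ± 0.13, limma adjusted p 0.00311). Dpt, a matrix protein, averaged 43.9 ± 3.15 CPM in tibialis and 90.7 ± 20.3 CPM in quadriceps (-0.99 ± 0.17, limma adjusted p 0.00817), and Pi16 averaged 14.9 ± 2.13 CPM in tibialis and 28.7 ± 5.52 CPM in quadriceps (-0.90 ± 0.17, limma adjusted p 0.0136). Gsn, Dpt and Pi16 were called without each library, and Pi16 was lost in the fit of 22 libraries (limma adjusted p 0.239). Dcn, a small proteoglycan, had 364, 331, 311 and 447 CPM in tibialis, against 532, 598, 619 and 509 CPM in quadriceps (-0.63 ± 0.14, limma adjusted p 0.027), and its adjusted p was 0.0573 to 0.101 without tibialis replicate 1 or 2 or quadriceps replicate 1, 2 or 3. The fifth, named after its values were seen, was Clec3b (-0.70). Pi16 had 27.1 ± 15.7 CPM in tibialis and 17.6 ± 4.15 CPM in quadriceps of healthy knock-in mice. Of 30 extracellular matrix genes 1, Dcn, was called lower, beside 3.34% of all genes apart from kidney genes, with a median of -0.45.

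Some tendon and macrophage genes were lower, with list medians of -0.74 and -0.46. Of all genes apart from kidney genes 3.34% were lower. Of 12 tendon genes Kera, a corneal and tendon proteoglycan (-1.79 ± 0.42, limma adjusted p 0.0349), and Ptgis, prostacyclin synthase (-1.003 ± 0.26, limma adjusted p 0.0431), were lower, and with the replicate block Kera was lost (limma adjusted p 0.0619). Kera was lost without tibialis replicate 1, 2 or 3 or quadriceps replicate 1, 2 or 3 (adjusted p 0.0659 to 0.106) and Ptgis without tibialis replicate 1, 2 or 3 or quadriceps replicate 1, 2, 3 or 4 (0.0538 to 0.125), and without quadriceps replicate 4 or tibialis replicate 4 the list had 3 and 6 lower. Of 20 macrophage genes the scavenger receptors Mrc1 (-1.14 ± 0.29, limma adjusted p 0.0423) and Cd163 (-1.30 ± 0.33, limma adjusted p 0.0443) were lower, and 5 with the replicate block. Mrc1 was lost without tibialis replicate 1 or 2 or quadriceps replicate 1, 2 or 3 (adjusted p 0.0612 to 0.125) and Cd163 without tibialis replicate 1, 2 or 3 or quadriceps replicate 2, 3 or 4 (0.0508 to 0.122), and without tibialis replicate 4 the list had 7 lower.

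Some vessel genes were higher in tibialis. Of 17 endothelial genes 5 were higher, with a median of 0.65, and 12 with the replicate block. Aqp1, a water channel of capillaries and of kidney tubules, had 873, 754, 810.5 and 725 CPM in tibialis, against 450.2, 350.2, 356 and 496 CPM in quadriceps (0.95 ± 0.15, limma adjusted p 0.00626). Healthy knock-in mice had 656 ± 153 CPM in tibialis and 373 ± 115 CPM in quadriceps for it. Pecam1, an adhesion molecule of endothelium, had 149.9, 144, 142 and 114 CPM in tibialis, against 88.8, 78.6, 92.7 and 92.1 CPM in quadriceps (0.65 ± 0.12, limma adjusted p 0.0127). Esam, another, averaged 60.2 ± 10.7 CPM in tibialis and 32.5 ± 2.11 CPM in quadriceps (0.88 ± 0.14, limma adjusted p 0.00751). These 3 did not overlap between the wild-type muscles and were called without each library, while the list count was 3 without quadriceps replicate 1, 2 or 3 or tibialis replicate 1 or 2, and 10 without tibialis replicate 4.

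Of 13 smooth muscle and pericyte genes 2 were higher, and with the replicate block 3 were higher and 1 lower. Without the block 4.65% of all genes apart from kidney genes were higher. Rgs5 of pericytes had 564, 643, 649 and 466 CPM in tibialis, against 324, 339.9, 336 and 329 CPM in quadriceps (0.81 ± 0.13, limma adjusted p 0.00667), with no overlap and in a call that held without each library. Higd1b, another pericyte gene, averaged 4.6 ± 0.746 CPM in tibialis and 2.18 ± 0.747 CPM in quadriceps (1.06 ± 0.27, limma adjusted p 0.0409), with an adjusted p of 0.0587 to 0.0923 without tibialis replicate 1, 2, 3 or 4 or quadriceps replicate 1, 2 or 3.

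Other cell types and states had few or no calls, where 4.65% of all genes apart from kidney genes were higher and 3.34% lower. Of 13 Schwann cell and nerve genes Ngfr, a neurotrophin receptor, was higher (0.90 ± 0.24, limma adjusted p 0.0491), and lost without tibialis replicate 1, 2 or 3 or quadriceps replicate 1, 2, 3 or 4 (adjusted p 0.0606 to 0.161). Of 19 clock genes 1 was higher and 1 lower. The lower gene was Rora, a nuclear receptor (-0.83 ± 0.22, limma adjusted p 0.0467), which was lost without tibialis replicate 1 or 2 or quadriceps replicate 1, 2, 3 or 4 (adjusted p 0.0633 to 0.136). The list had 2 lower with the replicate block. None of 16 myogenic and satellite cell genes, 23 immediate early genes or 7 erythrocyte genes was called with limma-voom or limma-trend, and at an unadjusted p under 0.05 limma-voom gave 2 higher and 2 lower, 2 higher and 2 lower, and 0. Under the replicate block 1 myogenic gene, Spry1 (0.41, limma adjusted p 0.0478), was higher and 1 immediate early gene, Fosl2 (-0.54, 0.0293), was lower, both named after their values were seen. Without tibialis replicate 3 or 4, 1 myogenic gene was higher, and without quadriceps replicate 4, 2 immediate early genes were. The lymphocyte genes listed did not reach the level needed for testing.

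The genes called in wild type were then followed in the knock-in muscles, which share no library with them. Of 619 genes higher in wild-type tibialis and tested in healthy knock-in mice, 583 (94.2%) had a fold change above 0 there, against 47.4% of all genes. Of 453 lower genes 433 (95.6%) were below 0, against 52.6% of all genes. Their median log2 fold changes were 0.34 and -0.47 in healthy knock-in mice, against 0.84 and -1.003 in wild type, where the genes were chosen by their test. In sick knock-in mice 487 of 608 higher genes (80.1%) and 314 of 424 lower genes (74.1%) kept their direction, against 51.4% and 48.6% of all genes. Without quadriceps replicates 2 and 3, left out after seeing the data, these were 433 of 629 higher genes (68.8%) and 396 of 455 lower genes (87%), against 50.3% and 49.7%.

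Few genes were called in the knock-in comparisons themselves. In healthy knock-in mice 1 gene of 13445 (0.00744%) was higher and 4 (0.0298%) were lower with limma-voom, limma-trend called 6 in all, and 1062 had an unadjusted p under 0.05. With the replicate block 88 were higher and 72 lower. The 1 higher was Hoxa13, and Six2 (-1.86 ± 0.19, limma adjusted p 0.021) was among the lower ones, with 7.76, 9.77, 7.34 and 8.76 CPM in tibialis, against 27.2, 39.2, 33.5 and 23 CPM in quadriceps. The other 3, named after their values were seen, were En1 (-2.43), Ripor2 (-1.63) and Dmp1 (-2.62), with wild-type log2 fold changes of -1.62, -2.24 and -1.74. Dmp1 was not called in wild type (limma adjusted p 0.13). With 1 library left out, 0 to 2 were higher and 1 to 2 lower: 2 higher without tibialis replicate 3 and 0 without any other, and 2 lower without tibialis replicate 3 or quadriceps replicate 4 and 1 without any other.

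In sick knock-in mice, with 3 libraries a muscle, limma-voom called 0 of 13513 genes higher and 0 lower (0% each), limma-trend called 0, and 914 had an unadjusted p under 0.05. Without tibialis replicate 2, 3 were lower. Six2 had 11.7, 3.77 and 13 CPM in tibialis replicates 1, 2 and 4, against 7.17, 7.86 and 36 CPM in quadriceps replicates 2, 3 and 4. The muscles overlapped, since quadriceps replicates 2 and 3 lay at the level of tibialis. Those replicates had 28.2 and 28.7 CPM of Npr3, against 5.98 CPM in replicate 4, and 529 and 248 CPM of Csrp3, against 32.3 CPM. Wild-type quadriceps had at most 6.75 CPM of Npr3 and 58.7 CPM of Csrp3. Other genes stayed on the quadriceps side in replicates 2 and 3. Sim1 had 1.21 and 0.374 CPM in them, against 8.18 to 17.8 CPM in sick knock-in tibialis. Hoxa13 had 0.58 and 0.125 CPM, against 3.65 to 5.45 CPM, and Hoxc8 2 and 3.74 CPM, against 0.357 to 0.98 CPM. Quadriceps replicates 2 and 3 thus resembled tibialis for some genes and not for others. Whether they are labelled or dissected as intended was not tested, and without them limma-voom called 0 higher and 0 lower, with 1 quadriceps library assumed to vary like the tibialis ones.

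Tested as a difference of the contrast between states, 7 of 15026 genes (0.0466%) differed between healthy knock-in and wild type, and 7 (0.0466%) between sick knock-in and wild type, all apart from the kidney genes set aside. The first 7 averaged 0.735 to 1.35 CPM in wild-type tibialis, with at most 0.167 CPM in healthy knock-in tibialis, the pattern across states that kidney genes had. Of the second 7, Csrp3 had a difference of -8.24 ± 1.51 (limma adjusted p 0.0141), with 23.1 ± 22.1 CPM in tibialis and 269.9 ± 249 CPM in quadriceps of sick knock-in mice. Quadriceps replicates 2 and 3 hold most of that quadriceps mean, and without them the difference was -5.96 ± 1.64 (limma adjusted p 0.378). Rbfox1 and Sox6, named after their values were seen, had positive differences (limma adjusted p 0.0114 and 0.0201, or 0.158 and 0.474 without those libraries). The other 4, Akr1c21, Slc6a18, Slc13a1 and Tmem174, had 0.735 to 1.68 CPM in wild-type tibialis and at most 0.0989 CPM in sick knock-in tibialis, again the pattern of kidney genes. Without quadriceps replicates 2 and 3 the sick knock-in count was 1, Mrm1. With kidney genes left out before the fit, each of the counts of 7 was 2.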

How the data were processed

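Total RNA of 32 mouse muscle libraries was sequenced, and the authors deposited 1 table with raw counts per gene (whole numbers, no normalization) and counts scaled by 1 factor per library, per the file headers and the values. The submitters' processing notes name cutadapt 1.18, TopHat2 2.1.1, HTSeq 0.6.0, DESeq2 1.22.1 and GRCm38; no source used here gives the strand setting or annotation release. Raw counts were used for 48586 of 54838 genes listed, and 6252 had no values. The scaled counts served only as a check. TMM factors (trims 0.3 and 0.05) were computed with R 4.3.3, and limma 3.58.1 (voom, offset 0.5) compared the 8 libraries with no covariate. Because missing values kept the raw columns from being treated as a plain count table, the quasi-likelihood test planned for counts was replaced by limma-voom. Genes needed 10 counts, scaled to the median library, in as many libraries as the smaller group, and 15 in total. Adjusted p-values are Benjamini-Hochberg over all genes tested.

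Named genes are the 12 highest and 12 lowest protein-coding genes called, with ranges that did not overlap and a mean of at least 2 CPM in the higher muscle, the 3 members of each list with the smallest p, all Hox genes tested, Gne, the adult myosins, Pitx1, Tbx4 and Tbx15, and the top 5 kidney genes, not all of which are printed; some results are not reported here. The comparison, members and lists were chosen with earlier results of these data known. Same-numbered tibialis and quadriceps libraries deviated together (correlations 0.527, 0.528, 0.228 and 0.358, against -0.324 to 0.136 for other pairs), so the replicate block is given beside results whose call or count it changes; the labels do not say what the numbers mark. The 12 pairs of replicates within a muscle differed beyond sampling noise (chi-square per gene 13.3 to 96). Gene positions are from GENCODE on GRCm38. The fit was tested on simulated counts. Alternatives were other scaling, no filter, kidney genes left out or as a covariate, each library left out, the block, quality weights, limma-trend and more libraries in the fit.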

Additional observations from a re-analysis of the deposited data

Results flagged for a closer look

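A library stood apart from the other 3 of its muscle for several measures, judged by the gap to its nearest neighbour as a share of the range; chance alone gives this in about 1 in 20 groups, and many groups were examined. Quadriceps replicate 4 did so for Csrp3 (share 0.871, 58.7 CPM against 1.98 to 9.31), Myl3 (0.907, 1.75 against 0.0567 to 0.214), Myh2 (0.841, 1885 against 295 to 548), Mpped2 (0.87, 2.37 against 0.322 to 0.589), Jph1 (0.888, 427 against 532 to 545), Trdn (0.866, 1363 against 1766 to 1828) and Kera (0.876, 27.1 against 62.2 to 67.1). It did so too for the mitochondrial share of counts (0.912, 10.8% against 7.04 to 7.38%). In each of these it lay on the side of tibialis. Quadriceps replicate 1 stood low for Higd1b (0.854, 1.07 CPM against 2.46 to 2.69).

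Tibialis replicate 3 stood high for slow fibre genes. Its Myh7 was 58.6 CPM against 0.167 to 1.99 (0.969), and as a share of adult myosin heavy chains 0.121% against at most 0.00298% (0.977). The slow isoform made up 0.139% of Tnni1 and Tnni2 reads per base (0.835), 0.219% of Tnnt1 and Tnnt3 (0.872), and 27.8% of Tnnc1 and Tnnc2 against 0.234 to 2.87% (0.904). The troponin C share lies far from the other troponin shares of that library. Fast Tnnc2 had only 110 CPM there, beside 20600 CPM of Myh4. Whether Tnnc2 reads were fully counted was not tested, so 27.8% is not a measure of slow fibre content. The same library was high for Retn (0.854, 2.54 CPM against 0.22 to 0.558). Tibialis replicate 4 was high for Mss51 (0.897, 67.3 CPM against 14.8 to 20.2), Nnat (0.854, 6.94 against 0.669 to 1.59) and Adrb3 (1, 0.199 against 0).

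In healthy knock-in quadriceps, replicate 4 had 1220 CPM summed over the kidney list, against 134 to 172 in the others (0.965), while the 55 members under 5 CPM in wild-type quadriceps summed to at most 19 CPM in all healthy knock-in quadriceps libraries, and replicate 3 had a Myh2 share of 2.81%, against 0.58 to 0.786% (0.908).

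The contrast of tibialis over quadriceps differed between states for kidney genes by limma-voom, as log2 differences of knock-in minus wild type. For healthy knock-in mice these were -7.54 for Slc34a1 (limma adjusted p 0.00015), -8.17 for Umod (3.16e-06) and -7.15 for Kap (0.009). For sick knock-in mice they were -10 for Slc34a1 (limma adjusted p 2.19e-05), -7.89 for Umod (2.19e-05), -10.2 for Kap (0.00206) and -8.24 for Csrp3 (0.0141). Without quadriceps replicates 2 and 3 of the sick knock-in mice that of Csrp3 was -5.96 (limma adjusted p 0.378).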

How the results depend on the processing

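The wild-type counts of 647 higher and 465 lower genes stayed within 1.5 times under other scaling, no filter, kidney genes left out or widened (a set added after seeing the data), limma-trend and a fit of 22 libraries. With 12 wild-type libraries 306 were lower. Quality weights gave 1562 and 1042, and the replicate block gave 1041 and 849, of which 1085 genes were among the 1112 called without it. With the kidney level as covariate limma-voom called 0 higher and 0 lower (608 unadjusted, limma-trend 0). The fits of 12 and of 22 libraries called 64.6% and 62.7% of the 1112 genes, and no filter 77.8%. Of the 95 named genes the fit of 12 ended the calls of 15 (Acsl1, Cd163, Eci1, Higd1b, Hoxd8, Hoxd9, Musk, Mybpc1, Myh3, Myh4, Myl3, Ngfr, Ptgis, Rora and Themis3; limma adjusted p 0.0507 to 0.258), that of 22 ended 24 (Acsl1, Acvr1c, Adipoq, Adrb3, Apoc1, Cd163, Cfd, Dcn, Fbxo40, Hotair, Jph2, Kera, Lep, Lgals12, Mrc1, Mss51, Musk, Myh3, Ngfr, Pi16, Plin1, Ptgis, Retn and Rora; 0.0522 to 0.536), and no filter ended 13 (Acadl, Ankrd2, Cd163, Cfd, Cox7a1, Csrp3, Eci1, Hspb7, Kera, Myh3, Myh4, Myl3 and Ngfr; 0.0555 to 0.135). With 1 library left out, 173 to 904 were higher and 141 to 714 lower. In healthy knock-in mice that range was 0 to 2 higher and 1 to 2 lower, and the block gave 88 and 72. In sick knock-in mice it was 0 to 0 higher and 0 to 3 lower by limma-voom, and the block, on the 2 shared replicate numbers, called 0 each way. With kidney genes left out, 2 and 2 genes differed between states, against 7 and 7. Without sick knock-in quadriceps replicates 2 and 3, chosen after seeing the data, 1 gene differed between sick knock-in and wild type.

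Under the kidney covariate 10 of the 95 named genes reversed, none past 0.05: Acadl -0.87, Ankrd2 -1.68, Cox7a1 -0.16, Csrp3 -0.72, Higd1b -1.10, Hoxa11os -0.14, Hoxc6 0.28, Kera 2.19, Lep 2.69 and Mrc1 1.14. The cause was not tested, as the covariate is confounded with the muscles. The block ended the call of Kera and added Hk2, Hoxa5, Hoxc9 and Myh2. With 4 libraries a muscle, shares cannot reach an exact p under 0.0286.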
